A study of Mus musculus with 34 samples.

Results

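The carbon nanotube materials known by the codes NRCWE-044 and NRCWE-045 were compared in mouse lung 28 days after a single intratracheal instillation of 18 µg. The comparison rests on 9 of the 34 arrays of the series, 6 from mice given NRCWE-044 and 3 from mice given NRCWE-045, chosen by the treatment and dose in the sample labels. All animals were female C57BL/6 mice, 5 to 7 weeks old, and the material was given in 40 µl. For reference, 5 control arrays and 5 arrays of each material at 54 µg were used. The labels do not state what the control mice received, and the title of 1 of the 5 controls carries the name NRCWE-043 at 0 µg, while its treatment field reads control. The labels give 5 per group, which differs from the 6 and 3 arrays here. Random pieces of frozen lung supplied the RNA, and liver and heart were collected from the same animals. Each two-colour array carried 200 ng of lung RNA in Cy5 beside a reference RNA from 11 mouse cell lines in Cy3. The series examines how the lung transcriptome responds to these materials.

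Carbon nanotubes that reach the alveoli are taken up by macrophages and can cause lasting inflammation, in which neutrophils, macrophages and type 2 cytokines take part. A piece of lung can also carry tissue from its neighbours. Hepatocytes make the plasma proteins albumin (Alb), fetuin-A (Ahsg) and apolipoprotein C3 (Apoc3), whereas adiponectin (Adipoq) and carbonic anhydrase 3 (Car3) are abundant in fat cells. These genes are therefore read here as 2 scores: the liver score is the mean of Alb, Ahsg and Apoc3, and the fat score the mean of Adipoq and Car3. Values are log2 ratios of lung to reference RNA minus the mean of the 5 controls, so 0 is the control level. Differences are NRCWE-044 minus NRCWE-045, and a negative one means less in NRCWE-044. In a piece of tissue, fewer cells of a type and less RNA per cell cannot be told apart.

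Hepatocyte promoters are read by a small set of transcription factors, among them HNF1 and FOXA. The sequences of 3 liver genes that the results turn on are shown because they carry short matches to both, or to 1 of them. Each is the 250 bases upstream of the annotated start in RefSeq, build GRCm38.p6, printed 5′ to 3′ on the gene's strand. Capitals mark GTTAAT, an HNF1 core, and TGTTTGC, the FOXA core, on either strand; the 2 motifs do not overlap in these windows. The windows are chr5:90460620-90460869, plus strand, for Alb, chr16:22891765-22892014, plus strand, for Ahsg and chr12:103863620-103863869, minus strand, for Serpina1a, an α1-antitrypsin gene.
Alb: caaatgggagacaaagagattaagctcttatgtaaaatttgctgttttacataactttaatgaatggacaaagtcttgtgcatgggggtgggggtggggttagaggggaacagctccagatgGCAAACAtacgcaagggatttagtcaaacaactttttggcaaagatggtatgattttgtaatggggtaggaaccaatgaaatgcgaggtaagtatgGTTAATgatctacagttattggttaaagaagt
Ahsg: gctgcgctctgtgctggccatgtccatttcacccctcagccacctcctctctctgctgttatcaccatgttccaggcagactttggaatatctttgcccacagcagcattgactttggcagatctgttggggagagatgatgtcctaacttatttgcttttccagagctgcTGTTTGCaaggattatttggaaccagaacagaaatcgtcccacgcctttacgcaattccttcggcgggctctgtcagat
Serpina1a: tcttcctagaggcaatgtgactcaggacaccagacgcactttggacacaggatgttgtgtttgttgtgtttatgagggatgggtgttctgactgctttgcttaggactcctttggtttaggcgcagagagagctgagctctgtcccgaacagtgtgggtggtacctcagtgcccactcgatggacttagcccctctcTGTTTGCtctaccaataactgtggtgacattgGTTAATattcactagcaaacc
In the same 250-base window GTTAAT occurred in 4.88% of the 13593 tested genes with a promoter in the table, and TGTTTGC in 3.47%. A match is a description of the letters and not evidence of binding.

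No gene passed between NRCWE-044 and NRCWE-045 at 18 µg. Of 29316 units tested, 17155 of them named genes and the others unnamed transcripts of the array design, 0 (0%) had an adjusted p under 0.05 (limma with Benjamini-Hochberg adjustment, smallest adjusted p = 0.111). At an unadjusted p under 0.05 there were 1803 units, 1210 of them lower (4.13% of all tested) and 593 higher (2.02%) in NRCWE-044. The median difference over all units was -0.0028, and 49.1% lay above 0. Large differences ran mostly 1 way: 169 units (0.576%) were over 1 log2 unit lower in NRCWE-044 and 15 (0.0512%) over 1 log2 unit higher. Since no unit passed, what follows describes values, and no gene at 18 µg is called changed unless an array was left out.

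Liver transcripts were higher on all 3 NRCWE-045 arrays than on any NRCWE-044 array. The liver score was 1.44, 4.94 and 0.64 on NRCWE-045 replicates 1, 2 and 3. Over the 6 NRCWE-044 arrays it ran from -0.30 to 0.33, which does not overlap with NRCWE-045, and over the controls from -0.12 to 0.15. The mean was -0.11 ± 0.23 (SD, n = 6) for NRCWE-044 and 2.34 ± 2.29 (SD, n = 3) for NRCWE-045, a difference of -2.44, or 5.44-fold. The size of this fold depends in part on the detection floor, since Apoc3 was well above background on 0 and Alb on 4 of the 6 NRCWE-044 arrays. One array of NRCWE-045, replicate 2, thus held most of the signal, and the nearest arrays of the groups, at 0.64 and 0.33, lay 0.31 apart. Because the score genes were named with these data known, the score has no p-value.

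**Figure D1:**
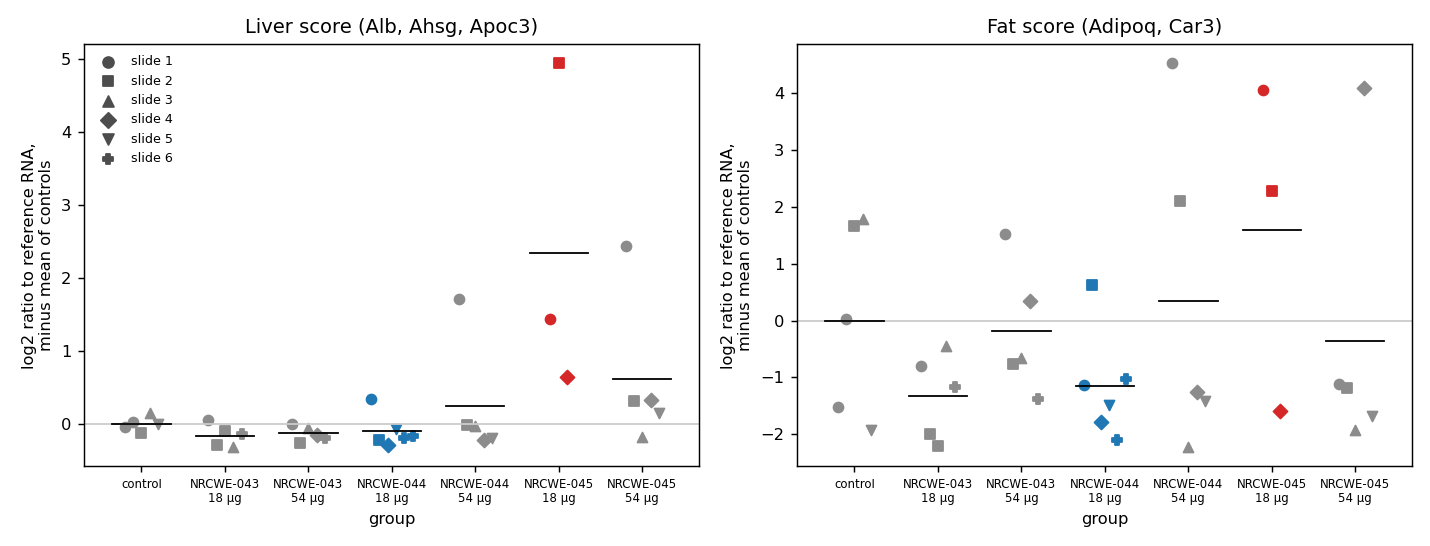
Liver score (left) and fat score (right) of every array, on the log2 scale relative to the control mean; points are arrays, marker shapes are slides, lines are group means, and the compared groups are blue (NRCWE-044, 18 µg) and red (NRCWE-045, 18 µg). The 3 NRCWE-045 arrays have the liver scores 1.44, 4.94 and 0.64, all above the 6 NRCWE-044 arrays, whereas fat scores of the groups overlap.

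Alb, the main plasma protein gene, lay at 1.70, 4.81 and 0.97 on the 3 NRCWE-045 arrays. In NRCWE-044 it had a lowest value of -0.41, a median of -0.24 and a highest of 0.69. The difference was -2.60 (SE 0.56, adjusted p = 0.15 by limma). Ahsg gave 1.17, 4.88 and 0.53 against a range of -0.40 to 0.20, a difference of -2.37 (SE 0.55, adjusted p = 0.19). Apoc3, a lipoprotein component, was not well above background on any NRCWE-044 array and above it on all 3 of NRCWE-045. In the normalized Cy5 channel alone, without the reference, its mean log2 intensity was 9.16 in NRCWE-045 and 6.29 in NRCWE-044. With NRCWE-044 arrays raised to their lowest detectable signal, that mean was 6.32 and the level in NRCWE-045 at least 7.17-fold higher on this scale, which is open to dye bias as dyes were not swapped. The ratio to the reference differed by -2.36 (adjusted p = 0.17 by limma), so the size depends on the scale.

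Hepatocyte genes outside the score were also lower in NRCWE-044. Serpina1a read 2.43, 5.26 and 1.80 in NRCWE-045 and -0.52 to 0.36 in NRCWE-044, with a median of -0.24, a difference of -3.27 (SE 0.65, adjusted p = 0.11). A further probe of Serpina1a gave -2.27. Serpina1a, Serpina1c and Serpina1e are near-identical copies, as are the Mup urinary protein genes, and the array may not tell the copies apart. Ambp, the α1-microglobulin and bikunin precursor, differed by -3.25 (SE 0.74, adjusted p = 0.17 by limma). A list of liver-secreted proteins and enzymes holds score genes or genes of the same tissue, so its counts are not independent of the score. Of its 34 tested genes, 34 were lower in NRCWE-044, 28 of them at an unadjusted p under 0.05 (4.13% of all units) and 0 at an adjusted one. Their median was -1.29, against -0.0028 over all units. For 12 of the 34 all NRCWE-044 arrays lay below all NRCWE-045 arrays, as did 1.71% of all units. On 6 of the 34 no NRCWE-044 array was well above background, so their differences are limited by the detection floor. Haptoglobin (Hp), also made in lung, differed by -0.01, and Vtn, the vitronectin gene, by -0.16.

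Replicate 2 of NRCWE-045 carried this list. Without it the list's median was -0.23 and the liver score difference was -1.14. In that fit 8 of 34 genes were lower at an unadjusted p under 0.05, as were 1008 of the 29316 units. Without replicate 1 the list's median was -1.83, and without replicate 3 it was -1.91. The 3 slides that held both materials gave liver score differences of -1.10, -5.16 and -0.94, the same sign on each. On replicate 2, 143 units lay over 1 log2 unit above every other array of the series; the named genes with the widest gap were Ambp at 7.28, Slc27a5, a bile acid enzyme gene, at 5.37 and Hpx, the haem carrier hemopexin, at 5.03. A list of 5 genes of Kupffer cells, the macrophages of the liver, was added after values were seen. Its mean was 1.79, 0.66 and -0.09 on NRCWE-045 replicates 1, 2 and 3 and -0.23 to 0.28 in NRCWE-044, so it was highest on replicate 1. All 5 genes were lower in NRCWE-044, with a median of -0.53. Of these, 3 had an unadjusted p under 0.05 (Cd5l, Vsig4 and Timd4), while 4.13% of all units were lower at that p. Clec4f, the Kupffer cell lectin of that list, instead read 1.07 on replicate 2, and -0.15 and -0.16 on the other two.

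Fat transcripts were higher on 2 of the 3 NRCWE-045 arrays and overlapped between the materials. The fat score was 4.05, 2.28 and -1.59 on NRCWE-045 replicates 1, 2 and 3, and ran from -2.09 to 0.62 over NRCWE-044. Controls alone ran from -1.93 to 1.78. The means were 1.58 ± 2.89 (SD, n = 3) and -1.15 ± 0.95 (SD, n = 6), a difference of -2.73. On the slides with both materials the difference was -5.19, -1.67 and -0.20. Adipoq read 4.23, 1.84 and -1.67 in NRCWE-045, and in NRCWE-044 had a lowest of -1.77, a median of -1.15 and a highest of 0.36. Its difference was -2.45 (SE 1.20, adjusted p = 0.81 by limma). Car3 differed by -3.01 (SE 1.34, adjusted p = 0.73). Of 24 fat cell genes 23 were lower in NRCWE-044, 8 at an unadjusted p under 0.05 (4.13% of all units), with a median of -0.45, and 0 of the 24 had groups that did not overlap. Pck1, the gluconeogenic and glyceroneogenic enzyme, differed by -2.20 (SE 0.76), Fabp4, the fat cell fatty acid carrier, by -2.21 (SE 1.00) and Plin1, the lipid droplet coat, by -1.89 (SE 0.86). Without replicate 1 the list's median was -0.15 with 1 gene at an unadjusted p under 0.05, without replicate 2 it was -0.45 with 0 such genes, and without replicate 3 it was -0.80 with 12.

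Genes of heart, airway secretion and cartilage also had lower values in NRCWE-044. All 15 tested cardiac muscle genes were lower, with a median of -1.39 and 0 at an unadjusted p under 0.05. The mean over that list was -0.37, 1.18 and -1.81 on the NRCWE-045 arrays and -1.90 to -1.54 on those of NRCWE-044, which lay below all 5 controls at -0.99 to 0.89. Nppa, the atrial natriuretic peptide, read -0.97, 2.87 and -1.03 in NRCWE-045 and -1.23 to -0.80 in NRCWE-044, so that only replicate 2 was high. Reg3g, an antimicrobial lectin of airway epithelium, read 4.29, 3.90 and -1.89 in NRCWE-045, whereas the 6 NRCWE-044 arrays stayed between -2.94 and -2.38. Its difference was -4.77 (SE 1.75, adjusted p = 0.53 by limma). Of 13 club and secretory cell genes, 10 were lower in NRCWE-044, 6 of them at an unadjusted p under 0.05, as were 4.13% of all units. The mean over this list was 0.98, 0.96 and -0.68 on the NRCWE-045 arrays and -1.31 to -0.58 on those of NRCWE-044, again below all controls at -0.50 to 0.69. Bpifa1, a secreted defence protein of upper airways, differed by -5.46 (SE 1.66, adjusted p = 0.32) and Scgb1a1, the defining club cell secretoglobin, by 0.07 (SE 0.27). Among 9 cartilage genes 8 were lower, 5 at an unadjusted p under 0.05, including Col2a1 at -0.79 (SE 0.24) and Comp at -0.82 (SE 0.26). The mean over the cartilage list was 0.66, 0.45 and 0.09 on the NRCWE-045 arrays and -0.14 to 0.15 on those of NRCWE-044, with controls at -0.18 to 0.15. The counts at an unadjusted p under 0.05 depended on single arrays: without replicate 3 there were 9 cardiac genes, without replicate 1 there were 3 club cell and 1 cartilage genes, and without replicate 2 there were 2 club cell genes. The part that these tissues play in the other differences was not tested.

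**Figure D2:**
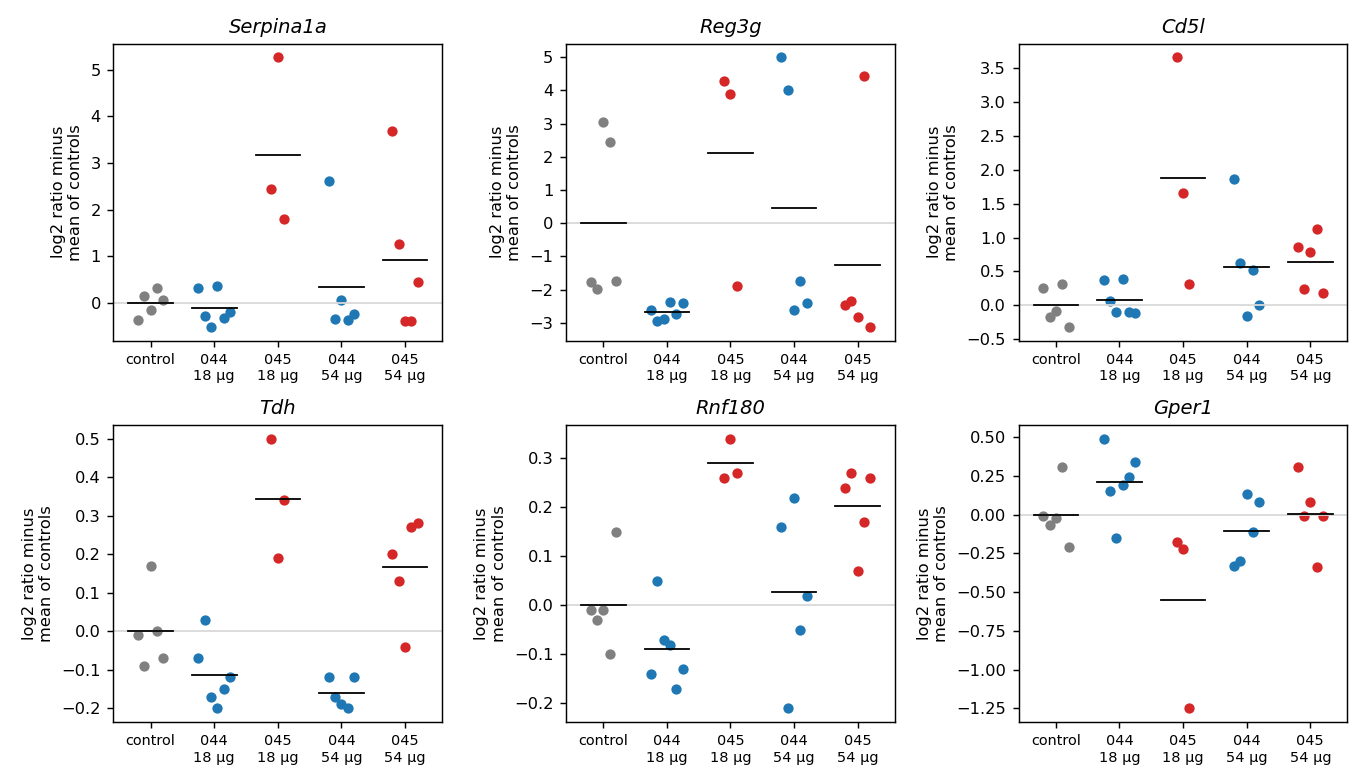
Values of 6 genes on each array (log2 ratio minus the mean of the controls; lines are group means; each panel has its own scale), for the controls and both materials at both doses. At 18 µg Serpina1a is higher on all NRCWE-045 arrays than on any NRCWE-044 array, Cd5l is highest on 1 NRCWE-045 array, Reg3g has high and low arrays in each group shown except NRCWE-044 at 18 µg, where all are low, and Tdh is lower on all NRCWE-044 arrays than on all NRCWE-045 arrays at each dose.

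Which other genes follow these scores was measured on the 25 arrays outside the comparison. A unit was called linked where its slope on a score was above 0 at an adjusted p under 0.05, in a limma fit with group means and both scores. This held for 44 units on the liver score (0.15%) and 581 on the fat score (1.98%) and for 619 on either (2.11%). All 44 liver-linked units were lower in NRCWE-044 at an unadjusted p under 0.05, with a median of -1.95, and 16 of them were not well above background on any NRCWE-044 array. Of the 581 fat-linked units 563 were lower in NRCWE-044, 131 of them at an unadjusted p under 0.05, with a median of -0.34. Over all units 4.13% were lower at that p. The fat link was not particular to fat cell genes. It held for 15 of the 24 fat cell genes, 14 of the 15 cardiac muscle genes and 6 of the 13 club cell genes. GTTAAT was found upstream of 12 of the 34 liver-linked genes with a promoter in the table (35.3%) and TGTTTGC upstream of 9 (26.5%), against 4.15% of 386 fat-linked genes for each. The liver-linked units include near-identical copies such as Serpina1a, Serpina1c and Serpina1e, so the 34 may not be independent.

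The large differences were mostly linked ones. Of the 169 units over 1 log2 unit lower in NRCWE-044, 123 were linked and 46 were not, and of the 15 units over 1 log2 unit higher 0 were linked. The 25 arrays hold few with a high liver score, the highest being 2.44 and 1.71, so a liver gene of low abundance can miss the link. Fgg and F2, which encode fibrinogen gamma and prothrombin, were not linked and differed by -1.94 (SE 0.56) and -1.61 (SE 0.45). Over the 28697 units that were not linked, the median difference was 0.00028, with 1041 lower and 593 higher at an unadjusted p under 0.05.

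With both scores as covariates, the median of the liver-secreted list moved from -1.29 to 0.11 and that of the fat cell list from -0.45 to 0.09. These lists hold score genes or genes of the same tissues. The slopes on the scores came from all arrays of the series, the compared ones included. NRCWE-045 18 µg replicate 2 had the highest liver score, 4.94, and the next was 2.44 on an NRCWE-045 54 µg array. The slopes thus rest in part on the arrays that carry the differences. Changes in values with the scores therefore cannot separate tissue from other differences. The cardiac list, with 14 of its 15 genes linked to the fat score, moved from -1.39 to 0.45. Cartilage stayed at -0.27, from -0.30, and the Kupffer cell list moved from -0.53 to -0.28. With the scores, 1224 units had an unadjusted p under 0.05, 782 lower (2.67%) and 442 higher (1.51%), against 1803 without. Serpina1a, which is in neither score, then differed by -0.64 (SE 0.38). The single call (0.00341% of the units) was an unnamed transcript of the array design at chr4:59093960-59122541, reverse strand, mm9 per the file headers. It was higher in NRCWE-044 by 1.66 (SE 0.27, adjusted p = 0.038 by limma with both scores as covariates). Its values in NRCWE-045 were 0.07, 0.15 and -2.38, and in NRCWE-044 -0.10 to 0.30, so that replicate 3 of NRCWE-045 alone stood apart.

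That spot lay in a bright patch on the array. On replicate 3 of NRCWE-045, 41 units lay over 1 log2 unit below all other 33 arrays of the series, and 39 of them sat in rows 134 to 157 and columns 4 to 10 of an array of 384 rows and 164 columns. In these 39 spots the median Cy3 intensity was 564, against 64.5 on the other arrays of the slide, and the Cy5 intensity 241 against 114. With the spots of the patch left out of that array, the covariate fit called 0 units, with 1176 at an unadjusted p under 0.05. Genes in the patch include Gper1, a membrane oestrogen receptor, Pmaip1, a p53 target that promotes apoptosis, and Cacna2d4, which encodes a calcium channel subunit. Gper1 had the smallest p among genes higher in NRCWE-044. It read -0.18, -0.22 and -1.25 in NRCWE-045 and -0.15 to 0.49 in NRCWE-044, a difference of 0.76 (SE 0.17, adjusted p = 0.17), which was 0.41 without replicate 3.

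**Figure D3:**
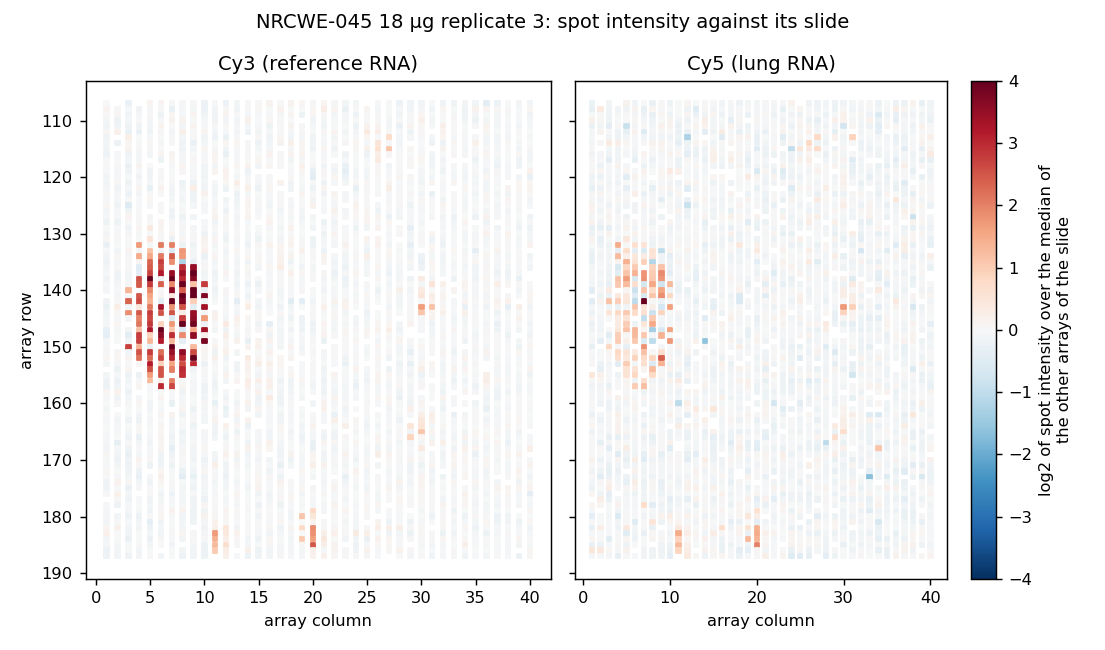
Part of the array of NRCWE-045 18 µg replicate 3, by array row and column; colour is the log2 of the spot's intensity over the median of the other arrays of its slide, for Cy3 (left) and Cy5 (right). Spots in rows 134 to 157 and columns 4 to 10 are brighter in Cy3 than on the other arrays, and less so in Cy5.

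Leaving out each array in turn showed how far the result depends on the 3 NRCWE-045 arrays. Without any 1 of the 6 NRCWE-044 arrays 0 units passed, with 1422 to 2231 at an unadjusted p under 0.05. Without NRCWE-045 replicate 1, 82 units passed, 70 lower and 12 higher in NRCWE-044. Of the 12 higher units 10 lie in the bright patch, among them Gper1 at 0.95 (adjusted p = 0.028 by limma). Of the 70 lower ones 33 were liver linked. Among those that were not, Tat, the hepatocyte tyrosine aminotransferase, fell by 1.87, Serpina6, the glucocorticoid carrier of plasma, by 1.45 and Slco1b2, a hepatocyte uptake transporter, by 1.61. Without replicate 3, 133 units passed, all lower in NRCWE-044, 60 of them linked. They included Alb at -3.36 (adjusted p = 0.0071) and Apoc3 (adjusted p = 0.0031), which has only a bound in NRCWE-044. Without replicate 2, the array richest in liver transcripts, 1 unit passed, an unnamed one that was not linked. The calls without replicate 1 and those without replicate 3 shared 59 units, 72% of the first and 44.4% of the second. With both scores as covariates, 54 units passed without replicate 1, 3 without replicate 2 and 0 without replicate 3. Leaving out 1 NRCWE-044 array gave 0 to 2 in that fit. The 54 came from a fit that kept replicate 3, the array with the bright patch.

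**Figure D4:**
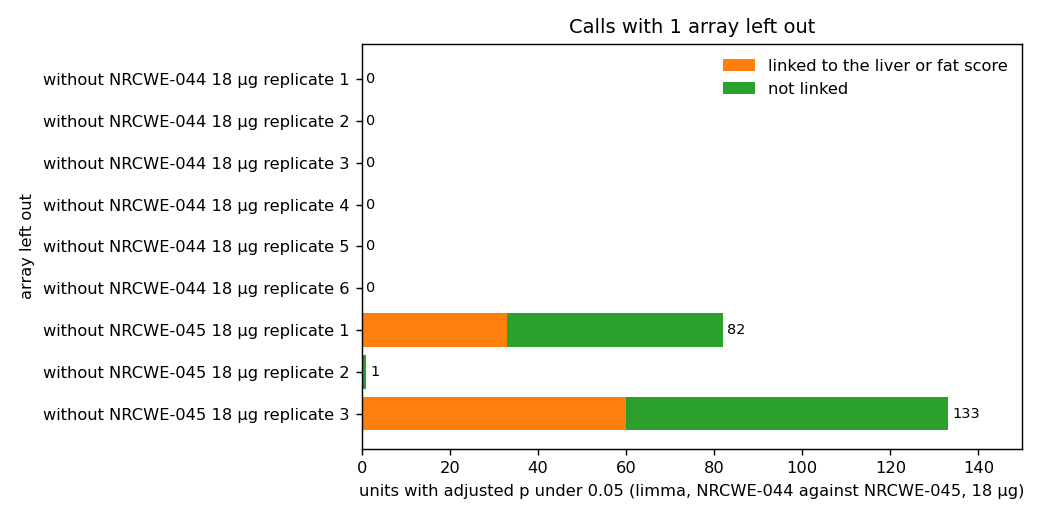
Units with an adjusted p under 0.05 (limma, NRCWE-044 against NRCWE-045 at 18 µg) when the array named on the vertical axis was left out; bars are split by a link to the liver or fat score. Counts are 0 without any NRCWE-044 array, and 82, 1 and 133 without NRCWE-045 replicate 1, 2 and 3.

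Some immune genes were highest on replicate 1 of NRCWE-045. The mean over the neutrophil list was 1.16, 0.08 and -0.31 on the NRCWE-045 arrays and -0.27 to 0.60 in NRCWE-044, and that of the alveolar macrophage list on replicate 1 was 0.14, inside the NRCWE-044 range of -0.38 to 0.28. Cxcl13, the chemokine that draws B cells into follicles, read 3.84 there, -0.86 and -0.37 on the other two, and -0.97 to 0.60 in NRCWE-044. Cd5l, a secreted protein of tissue macrophages, read 3.66, 1.66 and 0.32 against -0.11 to 0.39 in NRCWE-044, a difference of -1.80 (SE 0.46, adjusted p = 0.23 by limma). Vsig4, a complement receptor of resident macrophages, read 2.89, 0.69 and 0.07, and Fcna, ficolin A, 3.48, 0.81 and 0.17. Cd5l and Vsig4 are also members of the Kupffer cell list. Fcna was linked to the fat score, which among the NRCWE-045 arrays was highest on replicate 1, at 4.05. The part of liver macrophages or of fat in these values was not tested. S100a8, a calcium-binding protein of neutrophils, read 2.94, 0.07 and -1.04. Without replicate 3, Cd5l, Vsig4 and Fcna passed as lower in NRCWE-044 with differences of -2.57, -1.73 and -1.98 (adjusted p = 0.0071, 0.0071 and 0.026 by limma).

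In lists of inflammation few genes had a small p, and 0 passed. Over all units 4.13% were lower and 2.02% higher in NRCWE-044 at an unadjusted p under 0.05. Of 15 neutrophil genes 2 had an unadjusted p under 0.05, both lower in NRCWE-044, with a list median of -0.17, which was 0.13 without NRCWE-045 replicate 1. Csf3r, the G-CSF receptor, differed by -0.72 (SE 0.20, adjusted p = 0.26). Among 22 chemokines 1 had an unadjusted p under 0.05, Ccl11, an eosinophil chemokine, at -0.50 (SE 0.22). Ccl24, a further eosinophil chemokine, was lower on every NRCWE-044 array at -0.81 (SE 0.40, adjusted p = 0.82). The type 2 list held 3 genes of 17 lower and 1 higher at an unadjusted p under 0.05. The higher one was Tslp, an epithelial cytokine, at 0.33 (SE 0.14). The lower ones were Arg1, which hepatocytes also express, at -1.17 (SE 0.35), Ccl11, and the mucin gene Muc5b, which large airways also express, at -1.78 (SE 0.78). Of 19 acute phase and cytokine genes 3 were lower at an unadjusted p under 0.05, and these were Orm1, Orm2 and Saa1, which liver makes too. Saa3, the serum amyloid of inflamed lung, read 1.20, 0.19 and 1.19 in NRCWE-045 and -0.19 to 0.34 in NRCWE-044, a difference of -0.70 (SE 0.57, adjusted p = 0.93). Trem2, a receptor of lipid-handling macrophages, was 1.54 on NRCWE-045 replicate 3, and 0.06 and -0.08 on the other two.

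Lists of resident lung cells showed small shifts. Of 19 endothelial genes 18 were higher in NRCWE-044, with a median of 0.16 and 0 at an unadjusted p under 0.05. Of 14 natural killer and cytotoxic genes 12 were higher, with a median of 0.18 and 0 at an unadjusted p under 0.05. Alveolar type 2 and type 1 genes had medians of 0.02 and 0.10. Of 18 ciliated cell genes 15 were lower in NRCWE-044, with a median of -0.21, which was -0.05 without NRCWE-045 replicate 1. Of 10 mesothelial genes 8 were lower, with a median of -0.15, which was 0.05 without NRCWE-044 replicate 6. Each of these 2 lists held 1 gene lower at an unadjusted p under 0.05. Alveolar macrophage genes had a median of 0.11 with 0 of 15 at an unadjusted p under 0.05, and the p53 target and T cell lists medians of -0.014 and 0.0025. Of 22 cholesterol synthesis genes 17 were lower in NRCWE-044, 5 of them at an unadjusted p under 0.05, with a median of -0.14. Over all units 4.13% were lower and 2.02% higher at that p. With both scores as covariates the cholesterol median was -0.012, with 1 gene lower at an unadjusted p under 0.05. Without covariates Msmo1, a methylsterol oxidase, differed by -0.42 (SE 0.15, adjusted p = 0.48) without overlap between arrays. Of all units, 1.71% had all NRCWE-044 arrays below all NRCWE-045 arrays. Of 20 foamy macrophage and lysosome genes 11 were lower and 9 higher in NRCWE-044, with a median of -0.081; 2 had an unadjusted p under 0.05, both higher. These were Plin2, a lipid droplet coat, and Cd36, a lipid scavenger receptor, at 0.34 (SE 0.14) and 0.37 (SE 0.18). For Plin2 all NRCWE-044 arrays lay above all NRCWE-045 arrays, as did 0.938% of all units.

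Among genes linked to neither score, Tdh and Rnf180 had small differences and 4933438K21Rik a larger one, with groups that did not overlap. In 417 of the 28697 unlinked units, these 3 among them, all NRCWE-044 arrays lay below all NRCWE-045 arrays. Tdh, which encodes threonine dehydrogenase, read 0.50, 0.19 and 0.34 in NRCWE-045, and in NRCWE-044 had a lowest of -0.20, a median of -0.14 and a highest of 0.03. Its difference was -0.46 (SE 0.09, adjusted p = 0.11 by limma) and -0.47 (SE 0.11) with both scores as covariates. On the 3 shared slides it was -0.57, -0.16 and -0.51. A further probe of Tdh gave -0.03, so the difference was seen with 1 probe of the gene. Rnf180, an E3 ubiquitin ligase gene, read 0.26, 0.34 and 0.27 against -0.17 to 0.05, a difference of -0.38 (SE 0.08, adjusted p = 0.12). 4933438K21Rik, whose function is not given here, read 1.18, 0.87 and 1.12 against -0.38 to 0.27, a difference of -1.07 (SE 0.25, adjusted p = 0.19). For Tdh and Rnf180 the controls ran from -0.09 to 0.17 and from -0.10 to 0.15. Relative to the controls Tdh was -0.11 in NRCWE-044 and 0.34 in NRCWE-045, and 4933438K21Rik -0.01 and 1.06; both comparisons share the control arrays.

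At 54 µg, measured on other arrays, the tissue-linked units had medians nearer 0, while Tdh again separated the materials. No unit passed at 54 µg (0 of 29316, or 0%, 1055 at an unadjusted p under 0.05 by limma), nor did the difference between doses (0%, 841 at an unadjusted p under 0.05). The liver-linked units had a median of -0.21 at 54 µg and the fat-linked units 0.11, against -1.95 and -0.34 at 18 µg. High scores lay on single arrays there too. The liver score was 1.71 on 1 NRCWE-044 array and 2.44 on 1 NRCWE-045 array, and the fat score reached 4.07 on 1 NRCWE-045 array. Tdh read -0.12, -0.17, -0.19, -0.20 and -0.12 on the NRCWE-044 arrays and 0.20, 0.13, -0.04, 0.27 and 0.28 on those of NRCWE-045, again without overlap. Its difference at 54 µg was -0.33 (SE 0.08, adjusted p = 0.46). 4933438K21Rik read 0.27, -0.69, -0.86, -0.24 and -0.13 against 0.55, 0.90, 0.07, 0.84 and 0.76, a difference of -0.96 (SE 0.23) with overlap. Of the 71 unlinked units with an unadjusted p under 0.001 at 18 µg, 65 (91.5%) had the same sign at 54 µg, as had 30 of 33 linked ones (90.9%) and 55.8% of all units. The linked share depended on this cut. At an unadjusted p under 0.05 at 18 µg, the sign was the same for 1189 of 1634 unlinked units (72.8%) and 64 of 169 linked ones (37.9%). Across all units, which are not independent, Pearson's r between the doses was 0.04. No array is common to the doses, while slides are.

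The mean of the 18 and 54 µg differences was therefore tested as well, a comparison chosen after these values were seen. It gave 92 units with an adjusted p under 0.05 (0.314%), 91 of them lower in NRCWE-044. Of the 92, 89 were linked to neither score, which is near the share over all units, of which 2.11% were linked. The 3 linked ones were the liver-linked Serpina1a, Serpina1c and Serpina1e, while 0.15% of all units were liver linked. With both scores as covariates each of these 3 had an adjusted p of 0.95 by limma. Unnamed transcripts made up 66.3% of the 92, against 41.5% of all units tested. Tdh passed at -0.39 (SE 0.06, adjusted p = 0.0019 by limma), and at adjusted p = 0.014 with both scores as covariates. 4933438K21Rik passed at -1.01 (SE 0.17, adjusted p = 0.0049), and Rnf180 at -0.28 (SE 0.05, adjusted p = 0.019). Ulk3, an autophagy-related kinase gene, passed at -0.78 (SE 0.17, adjusted p = 0.038) and Ap5z1, an adaptor complex subunit, at -0.48 (SE 0.10, adjusted p = 0.027). Other probes of these genes did not share the 18 µg difference: that of Ulk3 gave 0.24 and those of Ap5z1 0.16 and -0.08, against -0.88 and -0.53 for the probes used. Skor1 passed at -0.55 (adjusted p = 0.033 by limma), and its other probe gave -0.58 at 18 µg, against -0.56. Cat, the catalase gene, passed at -0.46 (adjusted p = 0.049 by limma), and its other probe gave -0.16, against -0.54. Csf3r, the G-CSF receptor gene, passed at -0.60 (adjusted p = 0.045 by limma). Magohb, an exon junction complex subunit, was the unit that passed as higher in NRCWE-044, at 0.25 (SE 0.05, adjusted p = 0.038). With both scores as covariates 4933438K21Rik and Ulk3 passed (adjusted p = 0.035 and 0.048), while Rnf180, Ap5z1 and Magohb did not (adjusted p = 0.18, 0.080 and 0.18). Nor did Skor1, Cat and Csf3r (adjusted p = 0.12, 0.15 and 0.14 by limma). Unnamed units at chr4:3009566-3009932 and chr17:6426800-6528950 (reverse strand, mm9) passed at -1.31 (SE 0.19, adjusted p = 0.0016) and -0.71 (SE 0.11, adjusted p = 0.0035).

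As a description of units chosen for this difference, the mean of the 91 lower units was 0.63 ± 0.05 (SD, n = 3) in NRCWE-045 and -0.02 ± 0.12 (SD, n = 6) in NRCWE-044 at 18 µg, and 0.31 ± 0.11 (SD, n = 5) and -0.16 ± 0.13 (SD, n = 5) at 54 µg. It ran from -0.09 to 0.26 over the controls and from -0.46 to 0.24 over NRCWE-043 at 18 µg, a group that took no part in the contrast. With both scores as covariates 21 units passed (0.0716%), 19 of them among the 92, and with slide as a block 154, of which 72 were among the 92. Leaving out 1 of the 19 arrays gave 14 units (without NRCWE-045 54 µg replicate 5) to 160 (without NRCWE-044 18 µg replicate 2); Tdh stayed under 0.05 in each of these fits, its highest adjusted p being 0.019.

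**Figure D5:**
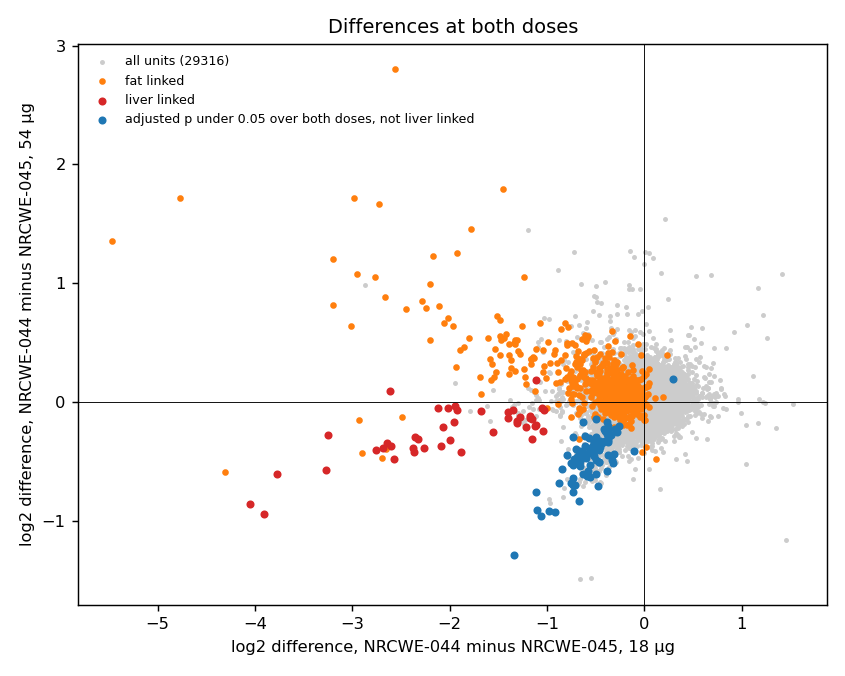
Log2 difference between NRCWE-044 and NRCWE-045 at 18 µg (horizontal) and 54 µg (vertical) for 29316 units, with units linked to the liver score, to the fat score and those with an adjusted p under 0.05 over both doses coloured. Liver-linked units have a median of -1.95 at 18 µg and -0.21 at 54 µg, fat-linked units -0.34 and 0.11, and 91 of the 92 units called over both doses lie below 0 at both.

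In overall signal the arrays of both materials overlapped. The share of probes above background by the scanner's flag was 52.5 to 67.6% for lung RNA and 47.5 to 64.5% for the reference, with a median Cy5 intensity of 109 to 165.5. An array's mean correlation with the others of its group, across probes, was 0.929 to 0.935 in NRCWE-045 and 0.958 to 0.965 in NRCWE-044, without overlap. Precision is limited by the number of arrays, above all the 3 of NRCWE-045. In the main fit, SEs and p-values rest on a spread pooled within groups over all 34 arrays. The labels do not state the samples to be separate animals. The SD in NRCWE-045 and NRCWE-044 was 2.29 and 0.23 for the liver score, and 2.89 and 0.95 for the fat score. For such genes the pooled spread can understate that of NRCWE-045, so their SEs and p-values can be too small. With only the 9 compared arrays the smallest adjusted p was 0.248 by limma, against 0.111 in the main fit. The 3 slides with both materials hold 3 arrays of each, so slide and material can be told apart there; with slide as a block 0 units passed at 18 µg.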

How the data were processed

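Per the file headers, the authors read the arrays with Agilent Feature Extraction 11.0.1.1. Their deposited files hold median spot and background intensity per channel, processed intensity, a log10 ratio (not used) and flags of 0 or 1 (other values) for irregular spots. The deposited series table gives log2 of Cy5 over Cy3; how the authors normalized it is not given in the sources used here. From the intensities, background was corrected by normexp (offset 50) and ratios normalized by loess within arrays in limma 3.58.1 (R 4.3.3). Of 55681 probes, 27235 had a symbol through their RefSeq accession; 1 probe per gene (the brightest in Cy5), well above background on at least 3 arrays, was tested. A model of 7 group means over all 34 arrays was fitted with empirical Bayes moderation, which was tested on simulated data. Genes named are the 10 with the smallest p in each direction, with and without scores as covariates, the score genes and up to 3 per list; every other gene named was chosen after its values were seen. The arrays compared and all lists were chosen with earlier results of these data known, so the planned permutation test of the scores is not reported. Replicate numbers follow the order of deposit. Dye and RNA source were never swapped. Alternatives are slide blocks, other signals, scaling, filters, array subsets and single arrays left out.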

Additional observations from a re-analysis of the deposited data

Results flagged for a closer look

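In groups of 4 to 10 arrays, single arrays lay far from the others of their group, by Dixon's criterion at 95%; chance gives this for about 1 group in 20. For the liver score these were NRCWE-044 18 µg replicate 1 at 0.33, NRCWE-044 54 µg replicate 1 at 1.71 and NRCWE-045 54 µg replicate 1 at 2.44. For the fat score it was NRCWE-045 54 µg replicate 4 at 4.07. Alb was 0.69 on NRCWE-044 18 µg replicate 1. The 3 arrays of NRCWE-045 at 18 µg are too few for the criterion.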

How the results depend on the processing

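At 18 µg 0 units passed by limma with slide as a fixed or random block, from processed signals, from the deposited series table, without or with a stricter filter on dim probes, on the 9 arrays or the 6 on shared slides, with array weights and with all probes; scaling arrays to one median absolute deviation gave 4. With both scores as covariates, 1 unit passed; slide as a block, processed signals, scaling, the filter on all 34 arrays, either score alone and leaving out the bright patch (added after seeing the data) gave 0, and no filter 1, while 6 passed from the series table. Leaving out 1 array gave 0 to 133 calls, 0 to 54 with the scores, and 0 to 73 among unlinked units. The unlinked count was 0 in the other settings run for it. At 54 µg processed signals gave 1 call, as did both scores as covariates, and the other settings run 0; the interaction gave 0 throughout. The liver score difference ran from -3.29 to -1.14 and the fat score difference from -4.32 to -1.50 with 1 array left out; the longer fat list gave -0.87. Over both doses the scores as covariates gave 21 calls, slide as a block 154, and single arrays left out 14 to 160. The labels give no replicate number shared between the groups, so pairs come from the slides: the 6 arrays on shared slides, paired by slide, gave 0 calls, with 1872 units at an unadjusted p under 0.05. Dim transcripts near background have only bounds.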

Other observations

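Single genes stood far above all other arrays on 1 array of NRCWE-044 at 18 µg. On replicate 6, Npas2, a clock transcription factor gene, read 8.52 and Shprh, a DNA damage tolerance gene, 5.62. These values were chosen after they were seen, and no test was run on them.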
